A study of Mus musculus with 5 samples.

Results

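Glycolysis, the pentose phosphate pathway and the uptake of glucose and lactate were followed through 32 genes in translating mRNA of the mouse midbrain after deletion of Esrrg, the gene of estrogen-related receptor gamma (ERRγ). The 32 genes were taken by symbol from the 53700 gene rows of the count table and cover the enzymes from hexokinase to lactate dehydrogenase, the enzymes that set fructose 2,6-bisphosphate, glucose and monocarboxylate transporters, a glucose 1,6-bisphosphate synthase and the oxidative and non-oxidative branches of the pentose phosphate pathway. All 32 had counts in these libraries. Aldoa had a second identifier with between 4 and 11 reads per library, which was kept out of every count given here.

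The mice were C57BL/6 per the labels and C57BL/6J per the study's methods, 4 months old, and carried the L10a transgene, a ribosomal protein with an EGFP tag that Cre recombinase switches on. All mice, controls included, received AAV:THCre, a virus in which the tyrosine hydroxylase promoter drives Cre, in the midbrain. The 3 Esrrg WT libraries (genotype L10a;Esrrg WT, replicates 2, 3 and 4) carried no floxed alleles, and in the 2 Esrrg Flox libraries (L10a;Esrrg Flox, replicates 2 and 4) the same Cre removes exon 2 of Esrrg, with tissue taken 1 month after deletion. Tagged ribosomes were pulled down with their mRNA (BAC-TRAP) from pooled midbrains, so that each library averages over mice. The virus limits tagging to infected cells with an active promoter.

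The libraries held between 20635855 and 23105058 assigned counts, and 3 counts, the floor used here, correspond to between 0.130 and 0.145 CPM, counts scaled to the library total. Esrrg had 1763, 1643 and 1726 normalised counts in Esrrg WT and 1504 and 1170.1 in Esrrg Flox, and the log2 fold change was -0.35 (SE 0.13, DESeq2 adjusted p = 0.0753). Counts over the whole gene do not measure the loss of a single exon. Summed dopaminergic markers were between 2375 and 2742 CPM in Esrrg WT and between 2370 and 2413 CPM in Esrrg Flox, with Th at 9849 normalised counts or more in every library. Of these 11 markers, Ret passed as lower (log2 fold change -0.40, DESeq2 adjusted p = 0.0029). GABAergic markers, of neurons that share the midbrain, summed to 1504, 1534 and 1478 CPM in Esrrg WT and 1463 and 1317 CPM in Esrrg Flox, lower in both Esrrg Flox libraries. Of these 6 markers, Gad2 passed as lower (-0.35, adjusted p = 0.0302) and Sst as higher (0.54, adjusted p = 0.0157). Astrocyte markers summed to between 2169 and 3203 CPM in Esrrg WT and 2270 and 2925 CPM in Esrrg Flox, and oligodendrocyte markers to between 5134 and 7362 CPM and 5726 and 6591 CPM, so RNA of glia was present in all 5 libraries. Summed microglial markers were 138, 171 and 85.0 CPM in Esrrg WT and 299 and 647 CPM in Esrrg Flox, and 10 of 12 of them were higher in Esrrg Flox by DESeq2 at an adjusted p of 0.05. No marker of any of these lists was at 0 in all libraries. In bulk RNA, fewer cells of a type and less RNA per cell cannot be told apart.

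Glycolysis splits glucose into pyruvate, which mitochondria oxidise or lactate dehydrogenase turns into lactate. The pentose phosphate pathway branches off at glucose 6-phosphate, and its oxidative arm supplies the NADPH that keeps glutathione reduced. Neurons take up much of their glucose through GLUT3 and are held to send a larger share of glucose 6-phosphate to the pentose phosphate pathway than astrocytes, which are more glycolytic and release lactate. The estrogen-related receptors are orphan nuclear receptors best known as regulators of mitochondrial oxidative genes, and they can also bind near genes of glycolysis. Hypoxia-inducible factor is the classical activator of glycolytic genes.

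Of the 32 genes, 31 received an adjusted p, and 5 of these passed the test of Esrrg Flox against Esrrg WT (16.1%, DESeq2 adjusted p under 0.05). Of all 15724 genes tested, 8.25% passed. The 2 genes that were higher were Hk2 and Pgls (6.45% of the members, against 4.2% of all genes), and the 3 that were lower were Hk1, Gapdh and Pgam1 (9.68%, against 4.05%). A fold change of at least 1.5 was reached by Hk2, which passed as higher, as did 1.77% of all genes at this fold. Of the members, 0 passed as lower with a fold change of 1.5, against 1.41% of all genes. The other 26 genes did not pass, and Pfkfb1, with between 5 and 15 reads per library, received no adjusted p. With edgeR's quasi-likelihood test 0 of 32 passed, where 1.42% of all 16627 genes tested with edgeR did, and the 5 genes had edgeR adjusted p between 0.0536 and 0.0835. At an unadjusted p of 0.05, 8 of the members passed with DESeq2 and 9 with edgeR, and the share over all genes with DESeq2 was 20.3%. That share was not counted with edgeR, so the 9 genes have no background beside them.

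The median log2 fold change of the members was -0.030, and that of all genes tested was -0.0063. The estimates were positive for 15 genes and negative for 17, and ran from -0.48 for Pgam1 to 1.00 for Hk2. Both Esrrg Flox libraries lay below every Esrrg WT library for 11 members (34.4%, against 22.5% of all genes) and above them for 6 (18.8%, against 19.9%). The members together took 1.73, 1.64 and 1.90% of the assigned counts in Esrrg WT and 1.57 and 1.55% in Esrrg Flox, so that both Esrrg Flox libraries lay under the lowest Esrrg WT library. Most of these counts belonged to a few abundant enzymes, of which Gapdh passed the test.

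**Figure D1:**
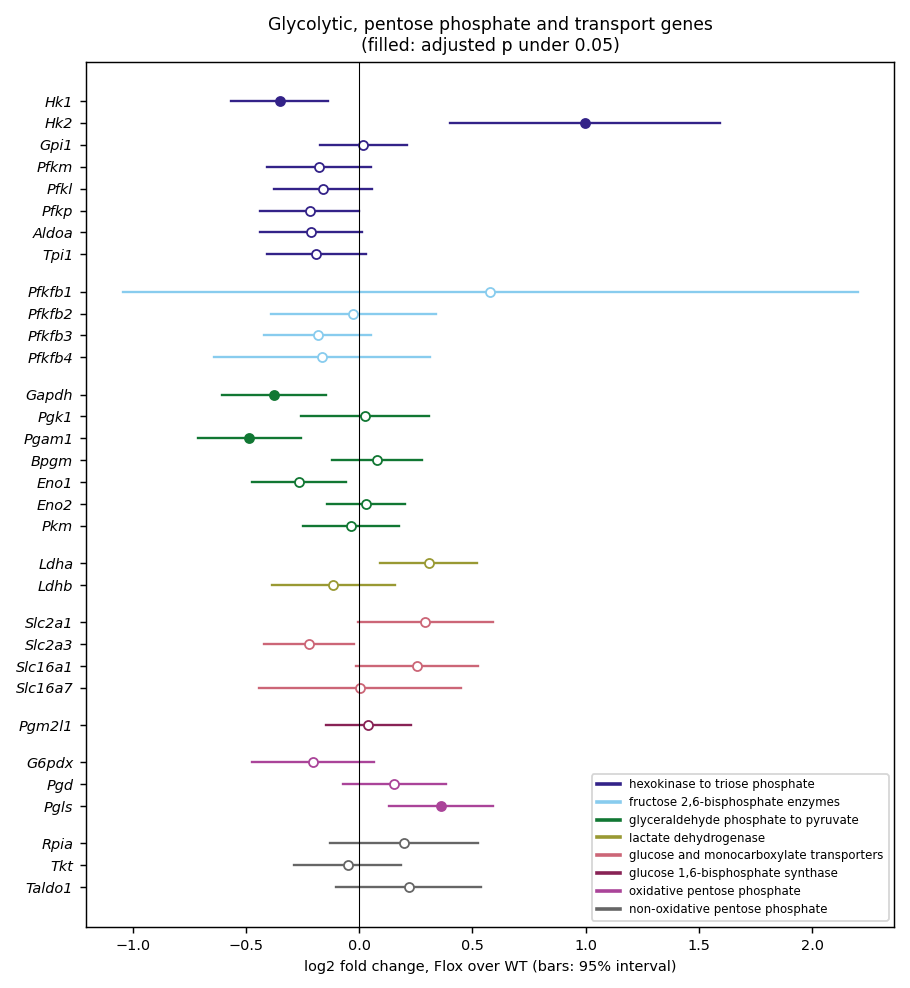
Log2 fold change of each of the 32 genes in Esrrg Flox over Esrrg WT (x axis) with its 95% interval from DESeq2, grouped and coloured by role, with filled points for genes that passed at an adjusted p of 0.05. Hk2 stands farthest to the right at 1.00 and Pgam1 farthest to the left at -0.48, and most intervals of the other genes include 0.

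The promoters of the members were searched for the core motif of estrogen-related receptors, AAGGTCA, and its extended form TNAAGGTCA, and for the core of the hypoxia response element, ACGTG, and the E-box CACGTG, which contains ACGTG, on both strands. The windows ran from 250 bases before to 50 bases after the start of transcription in RefSeq on GRCm38.p6, and 30 of the 32 genes were matched, with 47 windows. AAGGTCA was in 3 of the 47 windows (6.38%), against 4.72% of all 32851 windows, and these belonged to Pfkfb1, Tpi1 and Eno1. TNAAGGTCA was in 1 (2.13%, against 1.28%), that of Tpi1. ACGTG was in 19 windows (40.4%, against 19.6%) of 15 genes, and CACGTG in 6 (12.8%, against 7.15%). Windows of a gene can overlap, so that a site can count more than once, as it did for Aldoa. These shares are per window, and no share per gene was computed over all genes. ACGTG contains the pair CG, and the windows compared were not matched for base composition, so the shares do not show an excess of these elements. None of these matches shows that a factor binds there. The 250 bases before the start are printed for Hk2 and Pgam1, the genes with the largest fold changes in each direction, and for Ldha and Eno1, which stood nearest to the threshold among those that missed it, with matches to AAGGTCA and to ACGTG or CACGTG in capitals. A match on the opposite strand of ACGTG reads CACGT.
Hk2, chr6:82774455-82774704, minus strand: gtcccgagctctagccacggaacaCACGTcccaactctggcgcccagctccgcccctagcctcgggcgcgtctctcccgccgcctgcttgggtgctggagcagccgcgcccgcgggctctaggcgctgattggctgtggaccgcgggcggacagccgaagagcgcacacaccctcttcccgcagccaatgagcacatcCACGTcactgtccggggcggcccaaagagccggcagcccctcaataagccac
Pgam1, chr19:41911621-41911870, plus strand: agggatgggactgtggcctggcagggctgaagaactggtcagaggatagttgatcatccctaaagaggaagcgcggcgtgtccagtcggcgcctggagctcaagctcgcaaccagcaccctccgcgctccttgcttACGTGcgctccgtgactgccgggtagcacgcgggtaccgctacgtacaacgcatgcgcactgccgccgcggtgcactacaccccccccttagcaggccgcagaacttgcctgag
Ldha, chr7:46845554-46845803, plus strand: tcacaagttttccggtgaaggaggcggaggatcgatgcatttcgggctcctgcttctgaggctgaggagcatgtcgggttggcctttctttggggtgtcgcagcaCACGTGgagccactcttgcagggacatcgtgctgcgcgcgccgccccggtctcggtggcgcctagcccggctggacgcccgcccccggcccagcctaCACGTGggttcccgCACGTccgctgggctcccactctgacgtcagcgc
Eno1, chr4:150236458-150236707, plus strand: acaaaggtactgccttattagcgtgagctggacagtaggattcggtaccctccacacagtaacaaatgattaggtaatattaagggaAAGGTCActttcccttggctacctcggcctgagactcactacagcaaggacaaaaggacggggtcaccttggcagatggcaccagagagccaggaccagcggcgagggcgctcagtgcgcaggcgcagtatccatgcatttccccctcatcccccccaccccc
The Hk2 window has 2 matches to ACGTG and that of Pgam1 has 1. Ldha and Eno1 each have further windows, and the one printed is the farthest upstream. The printed Ldha window has 2 E-boxes and a further ACGTG close to its start. The printed Eno1 window has AAGGTCA between positions -163 and -157 and no ACGTG. The further windows of both genes had no match to any of the motifs. None of the 5 genes that passed had AAGGTCA in its windows.

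The upper stretch of glycolysis, from hexokinase to triose phosphate, held 8 of the genes, of which 1 passed as higher and 1 as lower. Hexokinase traps glucose in the cell by phosphorylating it, and the 2 members of this family moved in opposite directions. Hk1 (ENSMUSG00000037012.19), the main hexokinase of brain, had 8250.3, 7265 and 8044 normalised counts in Esrrg WT and 6557 and 5753 in Esrrg Flox. Its Esrrg Flox libraries lay below all Esrrg WT libraries, and the log2 fold change was -0.35 (SE 0.11, DESeq2 adjusted p = 0.0236). Hk2 (ENSMUSG00000000628.11), the hexokinase of muscle and fat that many proliferating cells induce, had 93.8, 112 and 63.4 normalised counts in Esrrg WT and 141 and 217 in Esrrg Flox. The groups did not overlap, but the pair of Esrrg Flox libraries differed from each other by more than Esrrg Flox replicate 2 did from the highest Esrrg WT library. Its log2 fold change was 1.00 (SE 0.30, DESeq2 adjusted p = 0.0206), and it was 0.65 without Esrrg Flox replicate 4 and 1.27 without Esrrg Flox replicate 2.

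Hk2 was a minor hexokinase throughout. Per kilobase of exon, Hk1 made up 98.4, 97.8 and 98.9% of the summed Hk1 and Hk2 level in Esrrg WT, and 97.0 and 94.9% in Esrrg Flox. The order of the 5 libraries by Hk2 was that of their summed microglial markers, with Esrrg WT replicate 4 lowest and Esrrg Flox replicate 4 highest in both. The part of the microglial markers in the Hk2 result was not tested.

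**Figure D2:**
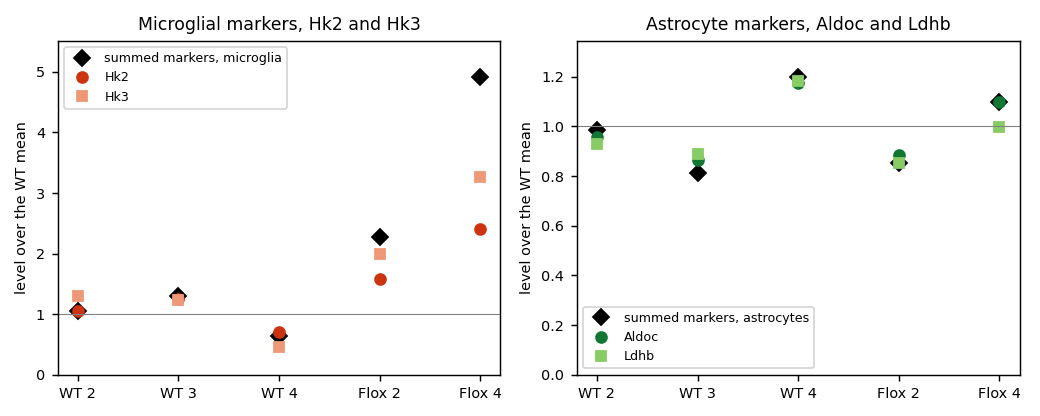
Summed microglial markers with Hk2 and Hk3 (left) and summed astrocyte markers with Aldoc and Ldhb (right) in each of the 5 libraries along the x axis, each divided by its Esrrg WT mean (CPM for the sums, normalised counts for single genes). Hk2 ranks the libraries as the summed microglial markers do, from Esrrg WT replicate 4 to Esrrg Flox replicate 4, and the microglial sum spans 85.0 to 647 CPM.

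The remaining 6 genes of the upper stretch did not pass. Aldoa, the aldolase with the most counts, had 55632, 52404 and 65449 normalised counts in Esrrg WT and 50591 and 49280.2 in Esrrg Flox, a log2 fold change of -0.21 (SE 0.11, DESeq2 adjusted p = 0.287). Its Esrrg Flox libraries lay below all Esrrg WT libraries, although the highest Esrrg WT library stood farther from the other two than they did from Esrrg Flox. The same arrangement held for Pfkl and Pfkp, subunits of phosphofructokinase, which commits the sugar to glycolysis, and for Tpi1, triose phosphate isomerase, with log2 fold changes between -0.22 and -0.16 and adjusted p between 0.249 and 0.463. Pfkm overlapped between the groups at -0.18 (adjusted p = 0.426), and Gpi1, glucose 6-phosphate isomerase, at 0.018 (adjusted p = 0.955). Per kilobase, Pfkm was 77.5, 76.3 and 77.6% of the subunits in Esrrg WT and 77.7 and 76.8% in Esrrg Flox. On raw counts, without length, its share was 54.7, 53.4 and 54.9% in Esrrg WT and 55.1 and 54.2% in Esrrg Flox. The share depends on exon length, which was 3340 bases for Pfkm and 13401 for Pfkp.

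Fructose 2,6-bisphosphate is the strongest activator of phosphofructokinase, and the 4 PFKFB genes encode the enzymes that make and remove it. None of the 3 with an adjusted p passed with DESeq2, and 0 had an unadjusted p under 0.05. Pfkfb3, the isoform with the highest kinase activity, had 1083, 1079 and 1199 normalised counts in Esrrg WT and 992 and 981 in Esrrg Flox. Both Esrrg Flox libraries were lower than all Esrrg WT libraries, and the log2 fold change was -0.18 (SE 0.12, DESeq2 adjusted p = 0.418). Pfkfb3 was 69.6, 68.9 and 69.6% of the PFKFB level per kilobase in Esrrg WT and 68.9 and 66.2% in Esrrg Flox. Pfkfb2 and Pfkfb4 had log2 fold changes of -0.026 and -0.16, and Pfkfb1 was close to the counting floor.

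Between glyceraldehyde phosphate and pyruvate, 2 of 7 genes were lower and 0 were higher. Gapdh (ENSMUSG00000057666.19), the dehydrogenase that yields the NADH of glycolysis, had 54138, 48655 and 61716 normalised counts in Esrrg WT and 43619 and 40974 in Esrrg Flox. The groups did not overlap, and the log2 fold change was -0.37 (SE 0.12, DESeq2 adjusted p = 0.0253). Pgam1 (ENSMUSG00000011752.8), phosphoglycerate mutase of brain, had 5630.2, 5594 and 6007 normalised counts in Esrrg WT and 4529 and 3681 in Esrrg Flox. It was the gene with the lowest adjusted p among the members (DESeq2, 0.00185), with a log2 fold change of -0.48 (SE 0.12) that was -0.35 without Esrrg Flox replicate 4 and -0.64 without Esrrg Flox replicate 2. Pgam1 has near-identical processed copies. Reads assigned to copies annotated under its name made up between 0.78 and 1.19% of the reads of Pgam1 and these copies in every library. For Gapdh and copies under its name, the share was between 0.0019 and 0.0044%. Copies annotated under other names were not searched for, so these shares leave them out. Reads that align to more than 1 place were not counted, and how many of the reads of Pgam1 or Gapdh were lost in this way was not measured. The summed GABAergic markers were also lower in both Esrrg Flox libraries. Of the 11 dopaminergic markers, 9 had negative and 2 positive estimates, while their sums overlapped between the groups. The part of either set of markers in the values of Hk1, Gapdh and Pgam1 was not tested.

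The other 5 genes of this stretch did not pass. Pkm, pyruvate kinase, had the highest mean count of the role with 55468, 51661 and 61507 normalised counts in Esrrg WT and 52415 and 57362 in Esrrg Flox. The groups overlapped, and the log2 fold change was -0.034 with a 95% interval of -0.25 to 0.18 (DESeq2 adjusted p = 0.920). Pgk1, which makes ATP at phosphoglycerate kinase, and Bpgm, which makes 2,3-bisphosphoglycerate, had log2 fold changes of 0.028 and 0.080 (adjusted p = 0.952 and 0.751).

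Enolase comes as Eno1, found in most tissues, and Eno2, the isoform of neurons, and both were chosen for description after their values were seen. Eno1 had 26659, 24583 and 29204 normalised counts in Esrrg WT and 22882 and 21725 in Esrrg Flox, a log2 fold change of -0.27 (SE 0.11, DESeq2 adjusted p = 0.0994). Eno2 had 32639, 31165 and 30735 normalised counts in Esrrg WT and 32255 and 32080.0 in Esrrg Flox, a log2 fold change of 0.030 (adjusted p = 0.914). Neither passed. Eno2 took 58.3, 59.2 and 54.6% of the enolase level per kilobase in Esrrg WT and 61.7 and 62.8% in Esrrg Flox, so that both Esrrg Flox libraries lay above all Esrrg WT libraries.

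**Figure D3:**
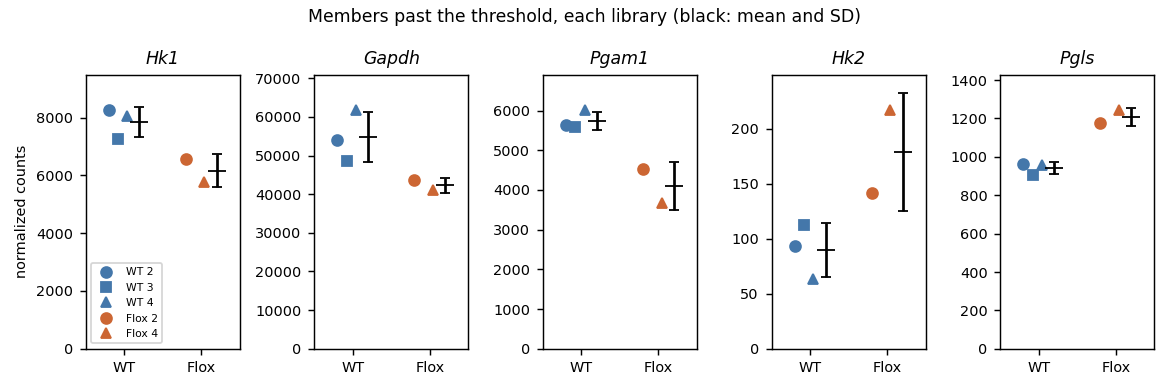
Normalised counts of each library for the genes that passed, with Esrrg WT and Esrrg Flox apart on the x axis and the mean ± SD of each group in black. Hk1, Gapdh and Pgam1 have both Esrrg Flox libraries under the lowest Esrrg WT library, and Hk2 and Pgls have both above the highest.

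Lactate dehydrogenase converts pyruvate and lactate into each other, with the A subunit (Ldha) usually tied to lactate production and the B subunit (Ldhb) to lactate use. Neither passed with DESeq2, 1 of 2 had an unadjusted p under 0.05, and edgeR passed none. Ldhb had 23754, 22721 and 30338 normalised counts in Esrrg WT and 21794 and 25511 in Esrrg Flox, overlapping groups with a log2 fold change of -0.11 (adjusted p = 0.737). It was highest in Esrrg WT replicate 4, followed by Esrrg Flox replicate 4, as were the summed astrocyte markers, whose part in its values was not tested. Ldha, described after its values were seen, had 5629, 5818 and 6428 normalised counts in Esrrg WT and 6918 and 7823 in Esrrg Flox. Its Esrrg Flox libraries were above all Esrrg WT libraries, with a log2 fold change of 0.31 (SE 0.11) that missed the threshold (DESeq2 adjusted p = 0.0564). It passed in 3 of the 12 alternative settings, with adjusted p from 0.0205 without Esrrg WT replicate 4 to 0.805 without Esrrg Flox replicate 4. The value was 0.415 without Esrrg WT replicate 2, 0.270 without Esrrg WT replicate 3, 0.0376 without Esrrg Flox replicate 2 and 0.100 with edgeR. Ldhb was 89.9, 89.2 and 90.9% of the lactate dehydrogenase level per kilobase in Esrrg WT and 86.9 and 87.3% in Esrrg Flox, which did not overlap.

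Of the 4 transporters, 0 passed with DESeq2 or edgeR, and with DESeq2 1 had an unadjusted p under 0.05. Slc2a3, the neuronal glucose transporter GLUT3, had 2702, 2770 and 2576 normalised counts in Esrrg WT and 2324 and 2279.5 in Esrrg Flox. Both Esrrg Flox libraries were lower than all Esrrg WT libraries, and the log2 fold change was -0.22 (SE 0.10, DESeq2 adjusted p = 0.174). Slc2a1, the GLUT1 of endothelium and glia, had 748, 745 and 844 normalised counts in Esrrg WT and 826 and 1083 in Esrrg Flox. The groups overlapped at a log2 fold change of 0.29 (SE 0.15, adjusted p = 0.257). Slc2a3 was 63.6, 64.3 and 59.6% of the sum of both per kilobase in Esrrg WT and 57.6 and 50.5% in Esrrg Flox, so the groups did not overlap. Summed endothelial markers were 7.22, 13.4 and 5.76 CPM in Esrrg WT and 13.6 and 33.9 CPM in Esrrg Flox, with 3 of 8 higher, and their part in the Slc2a1 values was not tested.

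Monocarboxylate transporters carry lactate and pyruvate. Slc16a1 (MCT1, the form of glia and endothelium) had a log2 fold change of 0.26 (adjusted p = 0.287) with both Esrrg Flox libraries above all Esrrg WT libraries, and Slc16a7 (MCT2, the neuronal form) one of 0.0022 (adjusted p = 0.998) with overlapping groups. Slc16a7 took 5.40, 6.18 and 5.62% of their sum per kilobase in Esrrg WT and 5.01 and 4.70% in Esrrg Flox. Pgm2l1, which makes the cofactor glucose 1,6-bisphosphate in brain, had 5075, 5241 and 4838 normalised counts in Esrrg WT and 5307 and 5083 in Esrrg Flox, with a log2 fold change of 0.041 (adjusted p = 0.886).

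**Figure D4:**
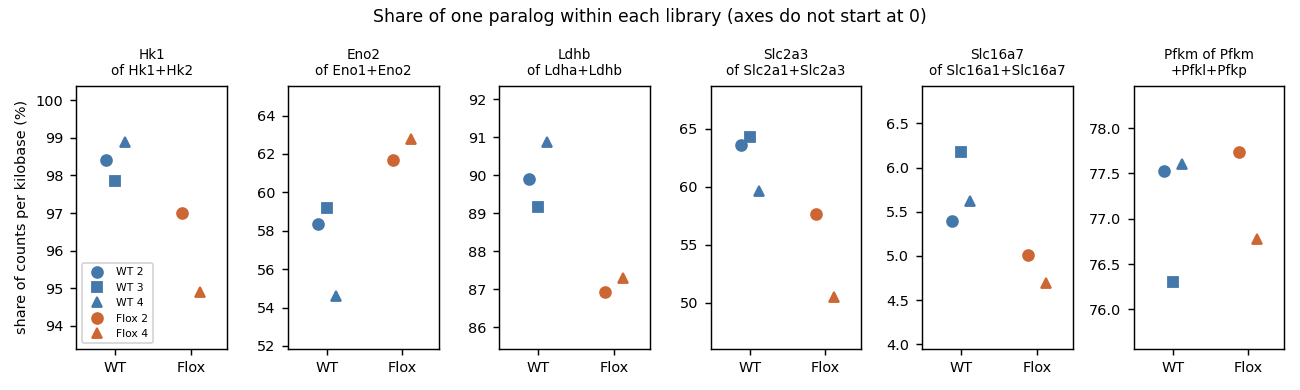
Share of each paralog in the summed level of its family per kilobase of exon, in percent, for 6 of the shares and each of the 5 libraries, on axes that do not start at 0. The shares of Hk1, Ldhb and Slc2a3 are lower in both Esrrg Flox libraries than in all Esrrg WT libraries, and that of Eno2 is higher.

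Such shares are formed within a library and need no size factor. Of 13 shares computed, 6 did not overlap between the groups, namely those of Hk1, Pfkp, Eno2, Ldhb, Slc2a3 and Slc16a7. The shares within phosphofructokinase, and those within the PFKFB genes, add up to the whole, so they are not separate results. Among all genes tested, the normalised counts of 42.4% did not overlap, which is a measure of single genes and not of shares. An exact permutation test of 3 against 2 libraries cannot go below a one-sided p of 0.1, so no test was made of a share.

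The oxidative arm of the pentose phosphate pathway has 3 enzymes, and 1 of them was higher. Pgls (ENSMUSG00000031807.11), which opens the lactone that glucose 6-phosphate dehydrogenase makes, had 961, 906 and 959.8 normalised counts in Esrrg WT and 1177 and 1243 in Esrrg Flox. The groups were apart by more than their spread, and the log2 fold change was 0.36 (SE 0.12, DESeq2 adjusted p = 0.0320). Other genes overlap 20.6% of its exon length. Strand was not used, so reads there that overlapped several genes are missing from its count. G6pdx, the enzyme at the entry of the arm and its main NADPH source, had 1223, 1121 and 1445 normalised counts in Esrrg WT and 1078 and 1116 in Esrrg Flox. Its Esrrg Flox libraries lay below all Esrrg WT libraries by less than the spread of Esrrg WT, with a log2 fold change of -0.20 (adjusted p = 0.442). Pgd, the second NADPH-forming enzyme, had both Esrrg Flox libraries above all Esrrg WT libraries at a log2 fold change of 0.16 (adjusted p = 0.504).

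In the non-oxidative arm, which returns pentoses to glycolysis, 0 of 3 genes passed with DESeq2 or edgeR and 0 had an unadjusted p under 0.05 with DESeq2. Tkt, transketolase, had 4608, 4143 and 5187 normalised counts in Esrrg WT and 4320.0 and 4648 in Esrrg Flox, overlapping groups with a log2 fold change of -0.051 (adjusted p = 0.884). Rpia, which makes ribose 5-phosphate for nucleotides, and Taldo1, transaldolase, had log2 fold changes of 0.20 and 0.22 (adjusted p = 0.579 and 0.507). The non-oxidative arm made up 69.6, 70.1 and 72.7% of the summed level of the pathway per kilobase in Esrrg WT and 70.2 and 73.5% in Esrrg Flox.

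The levels of the members spanned a wide range. Per kilobase of exon, the mean normalised count in Esrrg WT was 19865 ± 2334 (SD, n = 3) for Aldoa, 16309 ± 2632 for Ldhb, 13268 ± 1587 for Gapdh, 11240.2 ± 993 for Pkm and 10339 ± 1101 for Tpi1, and neighbours in this order lay within their SDs of each other. Pgk1 followed at 7135 ± 1150 (SD), below Tpi1 by more than the SDs, with Eno2 at 6698 ± 212 within its spread. Hk1, at the entry of the pathway, had 920.4 ± 60.9 per kilobase. Hk2 at 15.0, Slc16a7 at 11.8 and Pfkfb1 at 2.04 were the least abundant. The exon length counts all isoforms, so levels of genes with long, rarely used exons are understated.

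**Figure D5:**
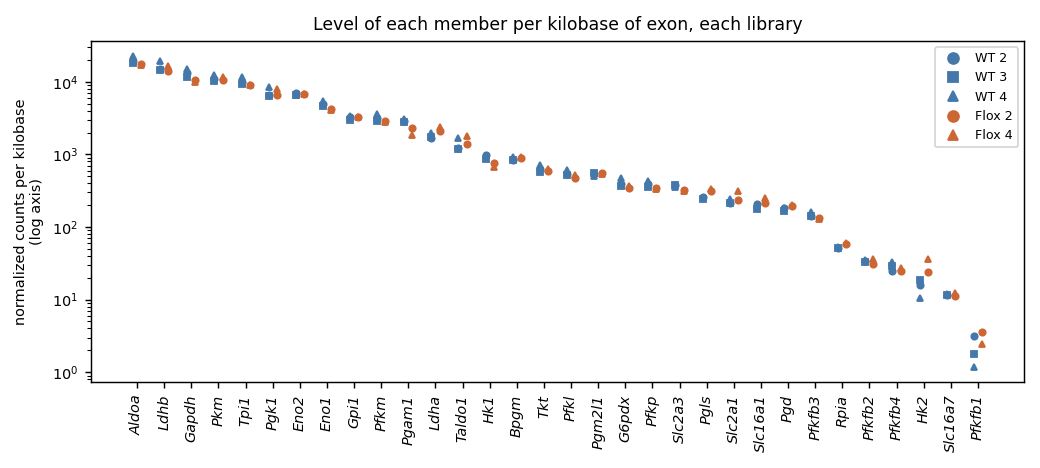
Normalised counts per kilobase of exon of the 32 genes in each library, on a log10 axis, ordered by the mean of Esrrg WT. Aldoa stands at the top at 19865 and Pfkfb1 at the bottom at 2.04 in Esrrg WT, and the libraries of both groups lie close together for most genes.

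A further 71 genes of the same pathways were listed, and of the 60 with an adjusted p 2 were higher (3.33%, against 4.2% of all genes) and 0 lower with DESeq2. At an unadjusted p of 0.05, 5 passed with DESeq2, 1 of them lower, where 20.3% of all genes did. At an adjusted p of 0.05, edgeR passed 1 as higher and 0 as lower, where 1.42% of all genes tested with edgeR passed. Among glycolytic paralogs, Hk3, a hexokinase of leukocytes, had 43.2, 40.8 and 15.4 normalised counts in Esrrg WT and 66.3 and 108 in Esrrg Flox, a log2 fold change of 1.40 (SE 0.45, DESeq2 adjusted p = 0.0318). Esrrg WT replicate 4 was lowest and Esrrg Flox replicate 4 highest, as for the summed microglial markers, whose part in it was not tested. Aldoc, the aldolase of astrocytes and the most abundant of the list, had 34058, 30738 and 41726 normalised counts in Esrrg WT and 31491 and 38992 in Esrrg Flox, a log2 fold change of -0.011 (adjusted p = 0.982). Its order of libraries was that of the summed astrocyte markers.

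Among 20 regulators, Txnip, which holds down glucose uptake and responds to glucose, had 101, 144 and 107 normalised counts in Esrrg WT and 231 and 267 in Esrrg Flox. The groups were apart by more than their spread, with a log2 fold change of 1.09 (SE 0.24, DESeq2 adjusted p = 3.78e-04). Other genes overlap 19.4% of its exon length. Egln2, a prolyl hydroxylase of hypoxia-inducible factor and the most abundant regulator, was at -0.24 (adjusted p = 0.174). No gene of the other 3 lists passed with DESeq2, out of 7 in the pentose phosphate list, 13 in sugar and lactate transport and 13 in glycogen and glucose phosphate, and 1, 1 and 0 of them had an unadjusted p under 0.05. Their most abundant genes were Prps1, which uses ribose 5-phosphate for nucleotides (0.22, adjusted p = 0.216), Bsg, the chaperone of monocarboxylate transporters (0.28, adjusted p = 0.117), and Pygb, brain glycogen phosphorylase (-0.15, adjusted p = 0.476). The median log2 fold change was 0.034 for the paralogs, -0.088 for the pentose phosphate genes, 0.075 for transport, -0.14 for glycogen and -0.027 for the regulators.

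The 5 genes that passed kept their direction under all 12 alternative settings, but not their side of the threshold. Their groups did not overlap, so leaving out 1 library could hardly turn a direction. All settings reuse the same counts, so the kept direction is no independent support. Without Esrrg Flox replicate 4, the library with the highest microglial sum, 0 members passed with DESeq2 and 3 had an unadjusted p under 0.05, and the calls over all genes fell from 660 higher and 637 lower to 33 and 39. The calls over all genes rose in both directions without Esrrg Flox replicate 2, a fit that also leaves 1 Esrrg Flox library. Without Esrrg WT replicate 2, 1 member passed, and without Esrrg WT replicate 4, 3 did. With the trend of counts on GC content removed, 10 members had positive and 22 negative estimates, and 508 of all genes were higher and 821 lower. Pgam1 passed in 10 of the 12 settings, Hk1 and Gapdh in 8, Hk2 in 7 and Pgls in 3. Hk2 received an adjusted p in only 10 of the settings and could not pass in the rest.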

How the data were processed

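Ribosome-bound RNA of 3 Esrrg WT and 2 Esrrg Flox libraries was sequenced (poly(A) selected, not strand-specific). Per the submitters' processing notes, the authors trimmed reads with Trim Galore 0.6.6, aligned them with STAR 2.7.9a and counted them per gene with HTSeq 0.11.3; the deposited values are raw counts. The study's methods name slightly older versions of STAR and HTSeq-count, and the genome as GRCm38.p6 where the notes list GRCm39. Reads that aligned to several places (3.60 to 4.23%) or overlapped several genes (5.62 to 5.78%) are in no gene's count, which lowers genes with copies or overlaps. Symbols were matched through GENCODE M21 (52147 of 53700 identifiers).

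All 29407 genes with a count were fitted with DESeq2 1.42.0 in R 4.3.3 (Wald test, two-sided, Benjamini-Hochberg over all genes, default independent filtering), the tool of the study. A gene passed at an adjusted p under 0.05, and a fold change of 1.5 is named apart. Normalised counts are counts divided by size factors. edgeR 4.0.16 was an alternative, beside those of the closing section. The fit was tested on simulated data. Every library differed from every other by more than counting noise; the study bred littermate controls and pooled mice for each library, and p-values cover the spread between these pools. The floor of 3 counts covers counting error only.

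The members and gene lists were chosen with earlier results of these data known. Values of each library are given for members that passed and for the most abundant member of each role, and for non-members that passed or were the most abundant of their list; Eno1, Eno2, Ldha and Slc2a1 were added after their values were seen.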

Additional observations from a re-analysis of the deposited data

How the results depend on the processing

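All 5 genes that passed kept their sign under the 12 alternatives (the ranges follow). Their selection by the test and their groups without overlap made this likely beforehand. The sign of 9 members that did not pass, with smaller estimates, changed under some. With edgeR, 0 members passed as higher and 0 as lower, and 1 other pathway gene as higher. Without independent filtering 1 member and 1 other pathway gene were higher, and with the GC trend removed 1 member was higher. Leaving out 1 library at a time gave between 0 and 2 members higher, between 0 and 3 lower, between 0 and 2 other pathway genes higher, and an Esrrg log2 fold change between -0.55 and -0.19. Without Esrrg Flox replicate 2, Esrrg passed (adjusted p = 0.00582). Where 1 Esrrg Flox library is left, it is assumed to vary like Esrrg WT. Under the replicate block, 0 members were higher, 3 were lower and 1 other pathway gene was higher. The numbers 2 and 4 recur in both groups. After the group mean of each gene was subtracted from log2 normalised counts, same-numbered libraries correlated at 0.153 and 0.126. The deviations of the 2 Esrrg Flox libraries mirror each other, so these values are constrained. No source says that a number marks a shared litter or day, so the samples share only a number. On raw counts, without length, the difference in share, in percentage points, was -0.63 for Pfkp, -4.77 for Ldhb and -1.99 for Slc16a7, against -0.27, -2.87 and -0.88 per kilobase, since length weights the paralogs. Hk2 ranged over 0.65 to 1.27, Pgam1 over -0.64 to -0.35, Pgls over 0.32 to 0.40, Hk1 over -0.45 to -0.26 and Gapdh over -0.45 to -0.28. Among those that changed sign, the log2 fold change of Slc16a7 was -0.0059 with TMM library sizes. Under the replicate block it was -0.036 for Gpi1, -0.045 for Pgk1 and -0.0091 for Slc16a7. With the length trend removed it was 0.0053 for Pfkfb2 and -0.064 for Pgk1. With the GC trend removed it was -0.023 for Gpi1, -0.014 for Pgk1, -0.0063 for Eno2, -0.052 for Slc16a7 and -0.0031 for Pgm2l1. Leaving out 1 library at a time gave -0.14 to 0.17 for Pgk1, -0.078 to 0.076 for Slc16a7, -0.037 to 0.053 for Gpi1, -0.10 to 0.032 for Pkm, -0.24 to 0.022 for Ldhb, -0.13 to 0.032 for Tkt and -0.15 to 0.089 for Pfkfb2. The members' median ranged over -0.12 to 0.017 and was positive without Esrrg WT replicate 4 or Esrrg Flox replicate 2. Of the other pathway genes, Hk3 passed in 5 alternatives (log2 fold change 1.00 to 1.71) and Txnip in 10 (0.97 to 1.26). Hk3 received an adjusted p in 9 of the alternatives and Txnip in 10.

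Over all genes, calls were 660 higher and 637 lower, against 147 and 89 with edgeR, 469 and 432 without independent filtering, 201 and 142 without Esrrg WT replicate 2, 338 and 303 without replicate 3, 427 and 441 without replicate 4, 33 and 39 without Esrrg Flox replicate 4, 221 and 255 under the replicate block, and 430 and 586 with the length trend and 508 and 821 with the GC trend removed. The calls rose in both directions without Esrrg Flox replicate 2. The causes of these moves were not tested. Depth limits Pfkfb1 among the members. Median log2 fold change ran from 0.22 for genes up to 1500 bases to -0.058 for those over 6000.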
